A study of Mus musculus with 24 samples.

Results

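Late maturation of cultured osteoblasts from high bone mass (HBM) mice was followed by setting day 21 of differentiation against day 10. The members are 3 HBM libraries of day 21 and 3 HBM libraries of day 10, which make up 6 of the 24 libraries of the series. They were chosen by the genotype, day and batch in the labels and paired by batch number (18, 19 and 21). Each library is bulk RNA-seq of polyadenylated RNA from cells grown out of the skull caps (calvariae) of newborn mice, pooled before culture, so that a replicate is a pool and not 1 animal. The labels state 3 independent pooled cultures. They do not state that the days share a culture, and libraries with the same genotype and batch number are called a culture here. The groups used are HBM at days 10, 15 and 21 and WT at the same days, each with batches 18, 19 and 21, and all cells were under the same osteoblast differentiation. The title of the series concerns the processing of the procollagen C-propeptide, the piece cut from the end of the collagen precursor before fibrils form. The labels name the HBM line by its high bone mass and do not give its allele. The comparison asks which genes change while a matrix-making culture grows older.

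Osteoblasts secrete the collagen I matrix of bone and then mineralize it. As they mature they leave the cell cycle, raise genes of mineral handling, and make osteocalcin, and some become osteocytes, which are known for sclerostin, an inhibitor of Wnt signalling, and for proteins that control phosphate. Calvarial cultures are mixed and can also hold macrophages, osteoclast precursors, adipocytes, and tendon-like and vessel-wall cells.

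The 6 libraries held 36787357 to 43605551 counts. Levels are given as CPM, counts per 1000000 after TMM scaling, in the order of cultures 18, 19 and 21. They are not divided by transcript length, so they are compared between libraries and not between genes. Osteoblast markers were abundant at both days. Col1a1 had 101600, 79190 and 55190 CPM at day 21 and 70970, 88790 and 43490 CPM at day 10, and the 22 osteoblast genes summed to 124000 to 232000 CPM at day 21 against 88200 to 198000 CPM at day 10. Other cells were present, since 13 macrophage genes summed to 2130 to 9380 CPM at day 21 and 1710 to 12900 CPM at day 10. Batch set the libraries apart more than day did: the first principal component of the 9 HBM libraries, with 46.2% of the variance, ordered the cultures, and the third, with 10.6%, ordered the days. Deviations from the group means correlated across genes at 0.718, 0.41 and 0.666 between day 21 and day 10 of the same number. Between different numbers the correlation was at most -0.137. Values below 0 there follow in large part from centring each group on its own mean, so they are not separate support for the pairing.

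Between day 10 and day 21, 1693 of 16344 genes tested (10.4%) passed an adjusted p of 0.05 in HBM cultures by edgeR's quasi-likelihood test with Benjamini-Hochberg adjustment, with each culture as a block. The fit held 18 libraries, HBM and WT at days 10, 15 and 21. The count was 965 in the 9 HBM libraries of those days, 7 in the 6 HBM libraries of days 10 and 21 alone and 16 with all 24 libraries, which add day 0. Of the 1693, 875 were higher at day 21 (5.35% of the genes tested) and 818 were lower (5%), and 256 and 161 of them by at least 2-fold. List counts given below are read against these shares. The genes that rose include osteocalcin, sclerostin and 14 of 24 amino acid and stress response genes, and those that fell include all 30 cell cycle genes tested and 11 of 20 interferon response genes. In the 9 HBM libraries alone the counts of the stress response, cell cycle and interferon lists were 7, 30 and 10. Among the 1693 genes, 1673 (98.8%) moved the same way in all 3 cultures, against 40.3% of all genes tested. For 817 of them (48.3%) the 3 day 21 levels did not overlap the 3 day 10 levels, against 11.5% of all genes tested. The same libraries, paired by culture, chose these genes, so both shares are in large part set by that choice. Without the culture block 0 genes passed by edgeR (1459 at an unadjusted p under 0.05). The count was lower by more than 1.5 times without the day 10 library of culture 18 (1119) or 19 (752) or the day 21 library of culture 18 (971) or 19 (1001). It was 331 without batch 18, 506 without batch 19 and 1002 without batch 21. In bulk RNA, fewer cells of a type and less RNA per cell cannot be told apart, which holds for every change given here.

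Osteoblast genes that passed were all higher at day 21. Of 22 tested, 6 rose and 0 fell, with a median log2 change of 0.486 against 0.0133 over all genes tested. The medians within cultures 18, 19 and 21 were 0.53, 0.059 and 1.1, and in culture 19 12 genes were above 0 and 10 below. Osteocalcin, the calcium-binding protein that mature osteoblasts secrete, was the member with the largest change. Bglap (chr3:88383501-88384464, mm10) had 1732, 778 and 282 CPM at day 21 against 327, 332 and 15.9 CPM at day 10, and each culture was higher at day 21 than at day 10 although the day 21 level of culture 21 lay below the day 10 levels of the other 2. Bglap was 5.61-fold higher at day 21 (log2 change 2.49, SE 0.599, adjusted p = 0.0211; edgeR). Its neighbouring copy Bglap2, which shares near-identical sequence so that reads may be split between them, had 1375, 729 and 251 CPM at day 21 against 310.2, 333 and 24.6 CPM at day 10. It was 4.44-fold higher (adjusted p = 0.0107; edgeR). The Bglap2 levels overlapped between days in the same way. The Bglap call was lost without any 1 of 4 libraries, the day 10 or the day 21 library of culture 18 or 21, with edgeR adjusted p-values of 0.0586 to 0.0736. Without batch 18 the edgeR adjusted p was 0.194 for Bglap and 0.146 for Bglap2.

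The osteoblast genes that rose also include regulators and a receptor. Vdr, the nuclear receptor for vitamin D, had 80.6, 79.3 and 30.7 CPM at day 21 against 38.4, 48.5 and 13.1 CPM at day 10. It was 2.02-fold higher (adjusted p = 0.00422; edgeR). The parathyroid hormone receptor Pth1r had 261, 272 and 172 CPM at day 21 against 178, 237 and 64.2 CPM at day 10 (log2 change 0.73, edgeR adjusted p = 0.0292). Creb3l1, a membrane-bound transcription factor that activates the collagen I gene, had a log2 change of 0.35 (edgeR adjusted p = 0.0134). The days overlapped across cultures for Vdr, Pth1r and Creb3l1, and in culture 21 the day 10 level was the lowest of the 3. The Creb3l1 call was lost without the day 10 or the day 21 library of culture 18 or 21, and that of Pth1r without the day 10 library of culture 19 or 21 or the day 21 library of culture 18 or 21. The number of osteoblast genes called was 2 without the day 10 library of culture 21 or the day 21 library of culture 18 or 21, 3 without the day 10 library of culture 18, and 10 without the day 21 library of culture 19. It was 0, 8 and 3 without batches 18, 19 and 21.

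Several defining genes did not pass. Runx2, the master transcription factor of the lineage, had 106, 117 and 84.4 CPM at day 21 against 100.5, 106 and 65 CPM at day 10 (edgeR adjusted p = 0.128). Sp7, which acts after Runx2, had 219.7, 204 and 131 CPM at day 21 against 147, 236 and 49.9 CPM at day 10 (edgeR adjusted p = 0.115; 0.0426 by DESeq2). Alpl, the alkaline phosphatase that frees phosphate for mineral, had 456, 539 and 347 CPM at day 21 against 358, 509 and 95.8 CPM at day 10 (edgeR adjusted p = 0.0956). The cultures differed for the matrix protein genes: Ibsp (bone sialoprotein) had 2581, 1858 and 1708 CPM at day 21 against 1453, 2322 and 94.1 CPM at day 10. Spp1 (osteopontin) had 1910, 1345 and 1139 CPM at day 21 against 1641, 2271 and 384 CPM at day 10. In both, cultures 18 and 21 were higher and culture 19 was lower at day 21, and neither passed (edgeR adjusted p = 0.296 and 0.647).

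RUNX proteins are known to bind the osteocalcin promoter, so the 200 bases before the Bglap start are shown (RefSeq, GRCm38.p6, chr3:88384467-88384666, minus strand, 5′ to 3′), with the letters of the RUNX core in capitals, here as its reverse complement ACCACA.
Bglap: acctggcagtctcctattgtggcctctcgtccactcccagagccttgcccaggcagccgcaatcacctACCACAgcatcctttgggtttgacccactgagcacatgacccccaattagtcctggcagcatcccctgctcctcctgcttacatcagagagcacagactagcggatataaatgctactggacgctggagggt
The core TGTGGT, on either strand of the 300 bases from 250 before to 50 after the start, was present in 4 of 13 osteoblast genes with a RefSeq promoter (30.8%), in 12.6% of all 11871 promoters searched and in 11.7% of the 658 of genes that rose. A match describes these letters only.

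Sclerostin led the osteocyte genes. Of 13 tested, 5 rose and 0 fell, with a median log2 change of 0.765 (0.565, 0.271 and 2.79 within cultures 18, 19 and 21). Sost (chr11:101962458-101967015), which encodes sclerostin, had 65, 75 and 11.6 CPM at day 21 against 7.62, 14.7 and 0.0236 CPM at day 10. The levels of cultures 18 and 19 at day 21 were far above every day 10 level, and culture 21 stood at 1 read at day 10 and 511 reads at day 21. Sost was 9.63-fold higher in the fit (log2 change 3.27, SE 0.543, adjusted p = 0.00422; edgeR), a value that depends on the prior count because of that single read. Ptprz1 (chr6:22875502-23052916), a receptor-type tyrosine phosphatase known from neural cells and the osteoblast lineage, had 210.4, 253 and 53.2 CPM at day 21 against 29.99, 72.9 and 2.87 CPM at day 10. It was 6.66-fold higher (log2 change 2.74, SE 0.318, adjusted p = 0.00103; edgeR). The day 21 levels of Ptprz1 lay above the day 10 level of the same culture in every pair but overlapped across cultures. Neither the Sost nor the Ptprz1 call was lost without any 1 HBM library. Without batch 18 the edgeR adjusted p of Sost was 0.0659, while Ptprz1 kept its call without any 1 batch.

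Phex, Mepe and Fam20c were the other osteocyte genes that rose. Phex, an endopeptidase whose loss causes phosphate wasting, had 199, 131 and 30.9 CPM at day 21 against 69.7, 105 and 2.19 CPM at day 10. It was 2.96-fold higher (adjusted p = 0.0362; edgeR). This call was lost without the day 15 library of culture 19 and without the day 10 or day 21 library of culture 18 or the day 21 library of culture 21 (edgeR adjusted p up to 0.127). Mepe, a phosphoprotein of osteocytes, had 3.7, 4.4 and 7.81 CPM at day 21 against 0.577, 1.99 and 0.0236 CPM at day 10. That is 133, 156 and 345 reads at day 21 against 24, 69 and 1 at day 10. Its call (adjusted p = 0.044; edgeR) was lost without any 1 of 8 of the 9 HBM libraries, all but the day 21 library of culture 19. Fam20c, the kinase that phosphorylates secreted bone proteins, had 62.6, 63.2 and 37.2 CPM at day 21 against 44.9, 43.2 and 27.6 CPM at day 10 (log2 change 0.49, edgeR adjusted p = 0.00378). Dmp1, an early osteocyte marker, went in different directions: it had 54, 16.8 and 96.7 CPM at day 21 against 51.7, 123 and 4.48 CPM at day 10, lower in culture 19, higher in culture 21 and nearly level in culture 18 (edgeR adjusted p = 0.9). The count of osteocyte genes was 3 without the day 10 library of culture 18, the day 15 library of culture 19, or the day 21 library of culture 18 or 21. It was 2, 5 and 3 without batches 18, 19 and 21.

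Among 17 mineral handling genes tested, 5 rose and 0 fell (median log2 change 0.488): Phex, Mepe and Fam20c, given above, and Enpp6 and Ank. The medians within cultures 18, 19 and 21 were 0.368, 0.0818 and 1.86, and in culture 19 9 genes were above 0 and 8 below. Enpp6, a choline phosphodiesterase, had 61.9, 49.1 and 11.4 CPM at day 21 against 16.9, 25.7 and 0.707 CPM at day 10. It was 3.78-fold higher (adjusted p = 0.0102; edgeR). Ank, a membrane protein needed for the release of pyrophosphate, which holds mineral back, had 116, 104 and 93 CPM at day 21 against 89.9, 64.8 and 78 CPM at day 10 (log2 change 0.43, edgeR adjusted p = 0.0158). The phosphate-releasing Phospho1 had 29.6, 22.7 and 18.5 CPM at day 21 against 19, 31.8 and 2.47 CPM at day 10 and did not pass (edgeR adjusted p = 0.299). The days did not overlap for Ank and overlapped for Enpp6 and Phospho1. The Ank call was lost without day 21 of cultures 18 or 19, day 10 of culture 19. The list count was 2 or 3 without 1 of 5 libraries: the day 10 library of culture 18 or 19, the day 15 library of culture 19, or the day 21 library of culture 18 (2) or 21. It was 1, 5 and 3 without batches 18, 19 and 21.

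**Figure D1:**
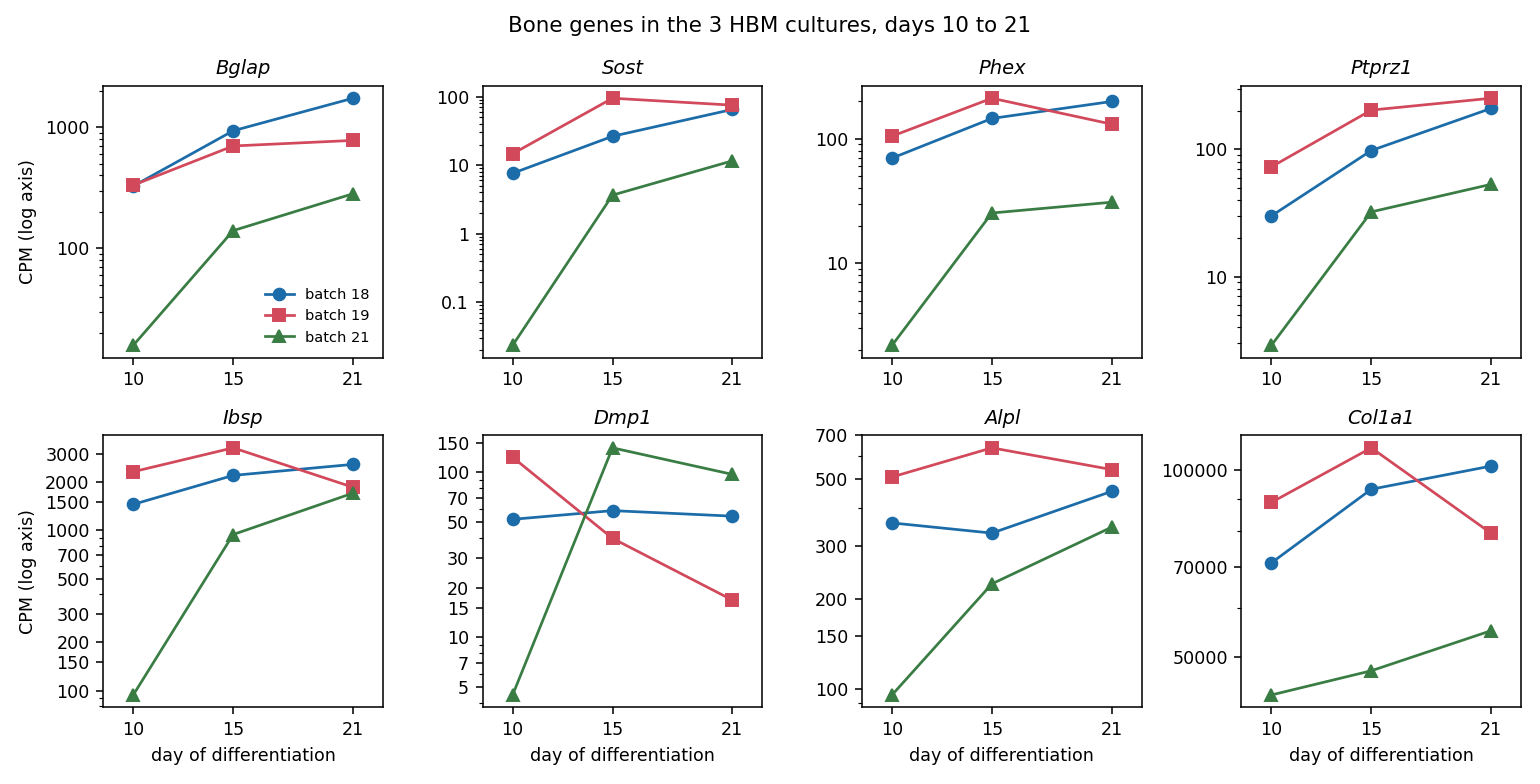
Levels of 8 bone genes in the 3 HBM cultures at days 10, 15 and 21 of differentiation (CPM, log axis; each line joins the libraries of 1 batch number, called a culture). Bglap, Sost, Phex and Ptprz1 end higher than they start in all 3 cultures, whereas Dmp1 and Ibsp end lower than they start in culture 19. All 6 start far lower in culture 21 than in the others.

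The collagen genes that build the bulk of the matrix did not pass. Col1a1 (chr11:94936224-94953042) had 101600, 79190 and 55190 CPM at day 21 against 70970, 88790 and 43490 CPM at day 10, with cultures 18 and 21 higher and culture 19 lower at day 21 (log2 change 0.24, SE 0.187, adjusted p = 0.469; edgeR). Col1a2 gave the same order, with 82430, 66450 and 43360 CPM at day 21 against 57530, 71750 and 28920 CPM at day 10 (edgeR adjusted p = 0.273). Of 17 fibrillar and fibril-associated collagens tested, 1 rose and 2 fell, where 10.4% of all genes tested were called. Col22a1, a collagen of tissue junctions, had 346, 247 and 69.3 CPM at day 21 against 86, 160.4 and 3.79 CPM at day 10. It was 4.1-fold higher (adjusted p = 0.0379; edgeR). Col27a1, a fibrillar collagen of cartilage, had 49.4, 53.7 and 71.5 CPM at day 21 against 94.8, 77.7 and 78.8 CPM at day 10 (log2 change -0.53, edgeR adjusted p = 0.0141). Col16a1 had a log2 change of -0.31 (edgeR adjusted p = 0.0496). The days did not overlap for Col27a1, and Col22a1 was higher in each culture with overlap across cultures. Calls were lost without any 1 of the libraries given in parentheses for Col27a1 (day 21 of cultures 18 or 19, day 10 of culture 18), Col22a1 (day 21 of cultures 18 or 21, day 15 of cultures 18, 19 or 21, day 10 of cultures 18 or 21) and Col16a1 (day 21 of cultures 18 or 19, day 15 of cultures 18 or 19, day 10 of cultures 18, 19 or 21).

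Among 29 genes of procollagen folding, modification and cleavage, 0 rose and 1 fell, against 5.35% and 5% of all genes tested. Tll1, a tolloid-like protease of the family that removes the C-propeptide, had 46.1, 82.1 and 46.9 CPM at day 21 against 72.6, 99 and 75 CPM at day 10. It was 1.45-fold lower (adjusted p = 0.0389; edgeR); the days overlapped, and the call was lost without any 1 of 6 libraries, day 21 of cultures 18 or 21, day 15 of culture 19, day 10 of cultures 18, 19 or 21. Its relative Bmp1, the principal C-propeptidase, had 593, 406 and 379 CPM at day 21 against 475, 501 and 285 CPM at day 10 (edgeR adjusted p = 0.463). Pcolce, which enhances that cleavage, had 1737, 1417 and 1231 CPM at day 21 against 2046, 1513 and 1262 CPM at day 10 (edgeR adjusted p = 0.372), and the collagen chaperone Serpinh1 had a log2 change of -0.05 (edgeR adjusted p = 0.826). Loxl4 was the member of 5 lysyl oxidases, the enzymes that crosslink collagen, that rose: it had 165, 166 and 67.2 CPM at day 21 against 58.9, 109.9 and 16.3 CPM at day 10. It was 2.61-fold higher (adjusted p = 0.00372; edgeR). Loxl4 was higher in each of the 3 cultures and kept its call without any 1 HBM library. Without batch 18 its edgeR adjusted p was 0.0642. The crosslinker Lox had 1949, 1271 and 1369 CPM at day 21 against 1548, 1710 and 1153 CPM at day 10 (edgeR adjusted p = 0.86).

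Of 13 small leucine-rich proteoglycans, 2 rose: Ecm2 (log2 change 0.54, edgeR adjusted p = 0.00873) and Epyc, a cartilage proteoglycan (log2 change 0.55, edgeR adjusted p = 0.0387). Of 15 matrix metalloproteinases and their inhibitors, 3 rose. For both lists the share of all genes tested that rose was 5.35%. Mmp12, the macrophage elastase, had 8.71, 184 and 332 CPM at day 21 against 3.15, 45.4 and 32.4 CPM at day 10. It was 5.12-fold higher (adjusted p = 0.0111; edgeR). Mmp9, a gelatinase of osteoclasts, had 14.7, 48.2 and 3.28 CPM at day 21 against 7.42, 5.25 and 1.6 CPM at day 10 (log2 change 1.78, edgeR adjusted p = 0.0266). The inhibitor Timp3 had a log2 change of 0.49 (edgeR adjusted p = 0.0468). Mmp12 and Mmp9 were higher in each culture, with levels that overlapped between days. Without 1 library calls were lost for Ecm2 (day 10 of culture 19), Epyc (day 21 of cultures 18 or 21, day 15 of culture 21, day 10 of cultures 19 or 21), Mmp9 (day 21 of cultures 19 or 21, day 10 of culture 19) and Timp3 (day 21 of cultures 19 or 21, day 15 of culture 21, day 10 of cultures 18, 19 or 21).

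Wnt signalling drives bone formation and is held back by secreted inhibitors. Of 24 Wnt ligands, inhibitors and targets tested, 5 rose and 0 fell. Besides Sost, these were the inhibitors Sfrp4 and Wif1 and the ligands Wnt4 and Wnt5b. Sfrp4 had 21.5, 12.3 and 13.6 CPM at day 21 against 5.79, 4.04 and 3.77 CPM at day 10, with no overlap between the days. It was 3.44-fold higher (log2 change 1.78, SE 0.178, adjusted p = 0.000393; edgeR). Wif1 had 36.8, 46.2 and 10.2 CPM at day 21 against 11.9, 23.1 and 0.683 CPM at day 10. It was 3.54-fold higher (adjusted p = 0.00839; edgeR). Wnt4 had 3.64, 3.95 and 1.11 CPM at day 21 against 1.13, 0.951 and 0.212 CPM at day 10. It was 3.86-fold higher (adjusted p = 0.00199; edgeR), and Wnt5b had a log2 change of 0.38 (edgeR adjusted p = 0.0437), a call lost without any 1 of 8 HBM libraries, all but the day 15 library of culture 19. The levels of Wif1 and Wnt4 overlapped between days across cultures but were higher at day 21 in each. The list count was 4 to 6 without any 1 HBM library and 2, 5 and 5 without batches 18, 19 and 21. Wif1 lost its call without batch 18 (edgeR adjusted p = 0.084). The inhibitor Dkk1 had 35.7, 40.1 and 9.92 CPM at day 21 against 12.2, 34.4 and 0.306 CPM at day 10 and did not pass (edgeR adjusted p = 0.0914). The pathway's feedback target Axin2 did not pass either, with 4, 3.27 and 10.5 CPM at day 21 against 9.13, 6.6 and 8.29 CPM at day 10 (edgeR adjusted p = 0.217).

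Of 26 BMP and TGF-beta genes, 4 rose and 1 fell, against 5.35% and 5% of all genes tested. Nog, the extracellular BMP antagonist noggin, had 13.2, 21.6 and 7.02 CPM at day 21 against 7.23, 11 and 3.27 CPM at day 10. It was 1.96-fold higher (adjusted p = 0.00249; edgeR). Tgfb1, the growth factor stored in bone matrix, had 89.4, 134 and 97.8 CPM at day 21 against 63.6, 104 and 73.6 CPM at day 10 (log2 change 0.42, edgeR adjusted p = 0.00522). Ltbp2 and the inhibitory Smad6 had log2 changes of 0.93 and 0.43 (edgeR adjusted p = 0.0144 and 0.012), and Ltbp1, which anchors latent TGF-beta in the matrix, had one of -0.36 (edgeR adjusted p = 0.0146). Among 10 insulin-like growth factor genes 3 rose and 3 fell. Both ligands fell, Igf1 without overlap between the days and Igf2 with overlap. Igf1 had 228, 283 and 295 CPM at day 21 against 363, 335 and 437 CPM at day 10. It was 1.41-fold lower (adjusted p = 0.0076; edgeR). Igf2 had 14.7, 21.7 and 7.09 CPM at day 21 against 37.8, 39.2 and 9.99 CPM at day 10. It was 1.89-fold lower (adjusted p = 0.00311; edgeR). The carrier proteins split, with Igfbp4, Igfbp6 and Igfbp7 higher at day 21 (log2 changes 0.48, 0.64 and 0.56; edgeR adjusted p = 0.043, 0.025 and 0.00712) and Igfbp3 lower (log2 change -1.20, edgeR adjusted p = 0.0234). Without 1 library calls were lost for Ltbp2 (day 21 of cultures 19 or 21, day 10 of cultures 19 or 21), Ltbp1 (day 21 of culture 19, day 10 of culture 19), Smad6 (day 21 of cultures 18 or 19, day 10 of cultures 18 or 19), Igfbp3 (day 21 of cultures 18 or 21, day 10 of cultures 18, 19 or 21), Igfbp4 (day 21 of cultures 19 or 21, day 15 of cultures 18, 19 or 21, day 10 of cultures 19 or 21) and Igfbp6 (day 21 of cultures 19 or 21, day 10 of cultures 19 or 21).

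Of 8 osteoblast-made regulators of osteoclasts tested, 2 rose and 1 fell. Il34, a ligand of the macrophage colony-stimulating factor receptor, had 56.8, 35.7 and 66.2 CPM at day 21 against 34, 26.2 and 46.9 CPM at day 10 (log2 change 0.56, edgeR adjusted p = 0.00824). The chemokine Cxcl12 had 862, 1132 and 578 CPM at day 21 against 699, 265 and 327 CPM at day 10 (log2 change 1.08, edgeR adjusted p = 0.0155). The osteoclast driver Tnfsf11 had 1.75, 2.82 and 0.679 CPM at day 21 against 2.28, 1.99 and 0.66 CPM at day 10. Its decoy receptor Tnfrsf11b had 88.8, 65.7 and 102 CPM at day 21 against 48.9, 52.3 and 83.2 CPM at day 10. Neither passed (edgeR adjusted p = 0.916 and 0.181). Efnb2 was 1.25-fold lower (adjusted p = 0.0461; edgeR). Il34 and Cxcl12 were higher in each culture with overlap between the days. The Cxcl12 call was lost without the day 10 library of culture 19, and that of Efnb2 without any 1 of 8 HBM libraries, all but the day 15 library of culture 21.

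Cell cycle genes fell together. All 30 tested were lower at day 21 and passed, with a median log2 change of -1.09, and their sum was 478 to 558 CPM at day 21 against 861 to 1400 CPM at day 10, with no overlap. The medians within cultures 18, 19 and 21 were -0.902, -1.44 and -0.92. The list held both DNA replication and mitosis genes. Ccne1 (chr7:38097984-38107534), the cyclin that opens DNA replication, had 12.5, 7.59 and 15.9 CPM at day 21 against 23.7, 19.98 and 27.3 CPM at day 10. It was 2.03-fold lower (log2 change -1.02, SE 0.114, adjusted p = 0.000793; edgeR). The replication helicase subunit Mcm5 had 17.8, 20.5 and 17.3 CPM at day 21 against 34, 47.5 and 31.3 CPM at day 10. It was 2-fold lower (adjusted p = 0.00159; edgeR). Cdk1 (chr10:69335146-69352938), the kinase that starts mitosis, had 21.2, 21.5 and 21 CPM at day 21 against 39.8, 59.2 and 42.9 CPM at day 10. It was 2.19-fold lower (adjusted p = 0.00249; edgeR).

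The mitotic kinase Plk1 had 10.8, 11.1 and 9.76 CPM at day 21 against 22.4, 40.4 and 22.9 CPM at day 10, so that the 3 cultures differed at day 10 and were close at day 21, and was 2.59-fold lower (adjusted p = 0.00622; edgeR). For Ccne1, Mcm5, Cdk1 and Plk1 no day 21 level reached a day 10 level. The smallest change in the list was in Pcna, the sliding clamp of DNA polymerase, with 50.01, 62.1 and 56 CPM at day 21 against 63.8, 80.6 and 74.8 CPM at day 10 (log2 change -0.38, edgeR adjusted p = 0.00735). Without any 1 HBM library 22 to 29 of the 30 were called, and 6 were called without batch 18, 15 without batch 19 and all 30 without batch 21. Tk1, a thymidine kinase of the same phase that is not in the list, had 11.9, 13.3 and 8.78 CPM at day 21 against 24.8, 35.2 and 22.2 CPM at day 10. It was 2.41-fold lower (adjusted p = 0.000793; edgeR).

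Promoters of mitotic genes are known for a cell cycle homology region and CCAAT boxes. The 200 bases before the start are shown for 4 cell cycle genes, those with the smallest p among members with both motifs (RefSeq, GRCm38.p6, 5′ to 3′), with TTTGAA or TTCGAA and CCAAT, or their reverse complements, in capitals. They lie at chr10:69352913-69353112 on the minus strand, chr6:88898781-88898980 on the minus strand, chr2:164769729-164769928 on the plus strand and chr2:118598011-118598210 on the plus strand.
Cdk1: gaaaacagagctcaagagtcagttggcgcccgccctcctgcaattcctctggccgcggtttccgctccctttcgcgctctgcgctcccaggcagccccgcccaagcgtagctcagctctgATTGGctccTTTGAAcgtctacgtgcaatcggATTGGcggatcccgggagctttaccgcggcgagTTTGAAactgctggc
Mcm2: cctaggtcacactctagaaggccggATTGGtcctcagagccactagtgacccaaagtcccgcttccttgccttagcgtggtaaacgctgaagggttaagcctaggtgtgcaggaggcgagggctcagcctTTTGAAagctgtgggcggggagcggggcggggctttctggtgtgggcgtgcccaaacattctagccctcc
Ube2c: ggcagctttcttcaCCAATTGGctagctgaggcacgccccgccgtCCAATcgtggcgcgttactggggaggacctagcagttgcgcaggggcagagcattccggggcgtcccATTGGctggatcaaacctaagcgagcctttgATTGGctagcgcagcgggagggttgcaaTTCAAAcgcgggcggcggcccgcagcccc
Bub1b: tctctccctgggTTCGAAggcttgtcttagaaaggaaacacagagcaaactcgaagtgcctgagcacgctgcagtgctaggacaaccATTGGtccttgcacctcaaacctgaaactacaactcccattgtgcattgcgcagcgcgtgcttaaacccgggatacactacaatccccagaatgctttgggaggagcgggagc
Both motifs, on either strand of the 300 bases around the start, were present in 13 of 25 cell cycle genes with a RefSeq promoter (52.0%), in 101 of 652 promoters of genes that fell (15.5%), in 27 of 658 of genes that rose (4.1%) and in 676 of all 11871 (5.69%). CCAAT alone was present in 20 of the 25 (80.0%) and in 38.2% of all, and the homology region in 13 of the 25 (52.0%) and in 13.7% of all. These counts describe letters in a window and not bound sites.

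Genes of the integrated stress response, which ATF4 drives when amino acids are short or protein folding is disturbed, moved the other way. Of 24 tested, 14 rose and 0 fell, with a median log2 change of 0.613. Trib3 (chr2:152337422-152344032), a pseudokinase and ATF4 target, had 30.2, 101 and 4.1 CPM at day 21 against 2.64, 4.12 and 1.3 CPM at day 10. It was 11.4-fold higher (log2 change 3.51, SE 0.574, adjusted p = 0.00394; edgeR). Chac1, which degrades glutathione, had 63.3, 75.2 and 11.4 CPM at day 21 against 11.1, 12.7 and 4.69 CPM at day 10. It was 4.45-fold higher (adjusted p = 0.00601; edgeR). Asns, asparagine synthetase, had 128, 173 and 35.6 CPM at day 21 against 35, 43.3 and 27.9 CPM at day 10. It was 2.67-fold higher (adjusted p = 0.0173; edgeR).

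Atf4 itself had 326, 383 and 181 CPM at day 21 against 185, 209.6 and 163 CPM at day 10 (log2 change 0.61, edgeR adjusted p = 0.0147). Atf3 had 10.01, 32.8 and 33.1 CPM at day 21 against 5.65, 11.6 and 16.4 CPM at day 10 (log2 change 1.13, edgeR adjusted p = 0.0025). The lipoprotein receptor Vldlr had 133, 140.2 and 52.2 CPM at day 21 against 65.9, 98.9 and 14.1 CPM at day 10 (log2 change 1.09, edgeR adjusted p = 0.00712). The amino acid transporters Slc7a5, Slc7a11, Slc3a2, Slc7a1 and Slc1a4 also rose, with log2 changes of 1.43, 1.78, 0.73, 0.77 and 0.55 (edgeR adjusted p = 0.0396, 0.0416, 0.0159, 0.0145 and 0.0331). Levels overlapped between days for all 6 genes given by library. By culture the list changed most in 18 and 19, with medians of 0.794 and 0.968 against 0.0853 in culture 21. The count was 5 without the day 10 library of culture 18 or the day 21 library of culture 19, 4 without the day 10 library of culture 19 or the day 21 library of culture 18, and 1, 5 and 16 without batches 18, 19 and 21. Trib3, Chac1, Atf3 and Vldlr kept their calls without any 1 HBM library. Without batch 18, Trib3, Chac1 and Vldlr lost theirs (edgeR adjusted p = 0.0757, 0.113 and 0.0763). The calls of Asns, Atf4 and the 5 transporters were lost without the day 10 or the day 21 library of culture 18 or 19. Those of Slc7a5, Slc7a11 and Slc1a4 were also lost without at least 1 day 15 library.

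Genes of protein folding in the endoplasmic reticulum mostly fell where they passed. Of 20 genes of the unfolded protein response, 8 fell and 2 rose. Those that fell include the disulfide isomerase Pdia6, with 397, 338 and 322 CPM at day 21 against 544, 514 and 392 CPM at day 10 (log2 change -0.45, edgeR adjusted p = 0.00603). Pdia4, an isomerase too, had 217, 199 and 226 CPM at day 21 against 269.8, 270.2 and 274 CPM at day 10 (log2 change -0.34, edgeR adjusted p = 0.00809), where the days did not overlap. The other 6 were Pdia3, Calr, Manf, Hsp90b1, Creld2 and Sdf2l1, all between -0.36 and -0.23 on the log2 scale. Herpud1, a component of protein degradation at the endoplasmic reticulum, rose, with 138, 164 and 97.4 CPM at day 21 against 88.8, 83.6 and 81.9 CPM at day 10 (log2 change 0.62, edgeR adjusted p = 0.0067), as did the sensor Atf6 (log2 change 0.30, edgeR adjusted p = 0.00925). The days did not overlap for Herpud1. The main chaperone Hspa5 had 811, 746 and 806 CPM at day 21 against 991, 894 and 948 CPM at day 10 and did not pass (edgeR adjusted p = 0.107). The number that fell was 3 without the day 10 or the day 21 library of culture 19 and 4 without the day 21 library of culture 18. It was 5 without the day 10 library of culture 18 or 21 or the day 15 library of culture 18 or 19. It was 0, 0 and 6 without batches 18, 19 and 21. Pdia6, Pdia4, Creld2 and Herpud1 kept their calls without any 1 HBM library. Each of these genes lost its call without batch 18 or batch 19 (edgeR adjusted p of 0.0504 to 0.126). Calls were lost for Atf6 (day 10 of culture 19), Manf (day 21 of culture 19, day 10 of culture 19) and Calr (day 21 of cultures 18 or 19, day 10 of culture 19), and for Pdia3, Hsp90b1 and Sdf2l1 without any 1 of 8 HBM libraries.

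**Figure D2:**
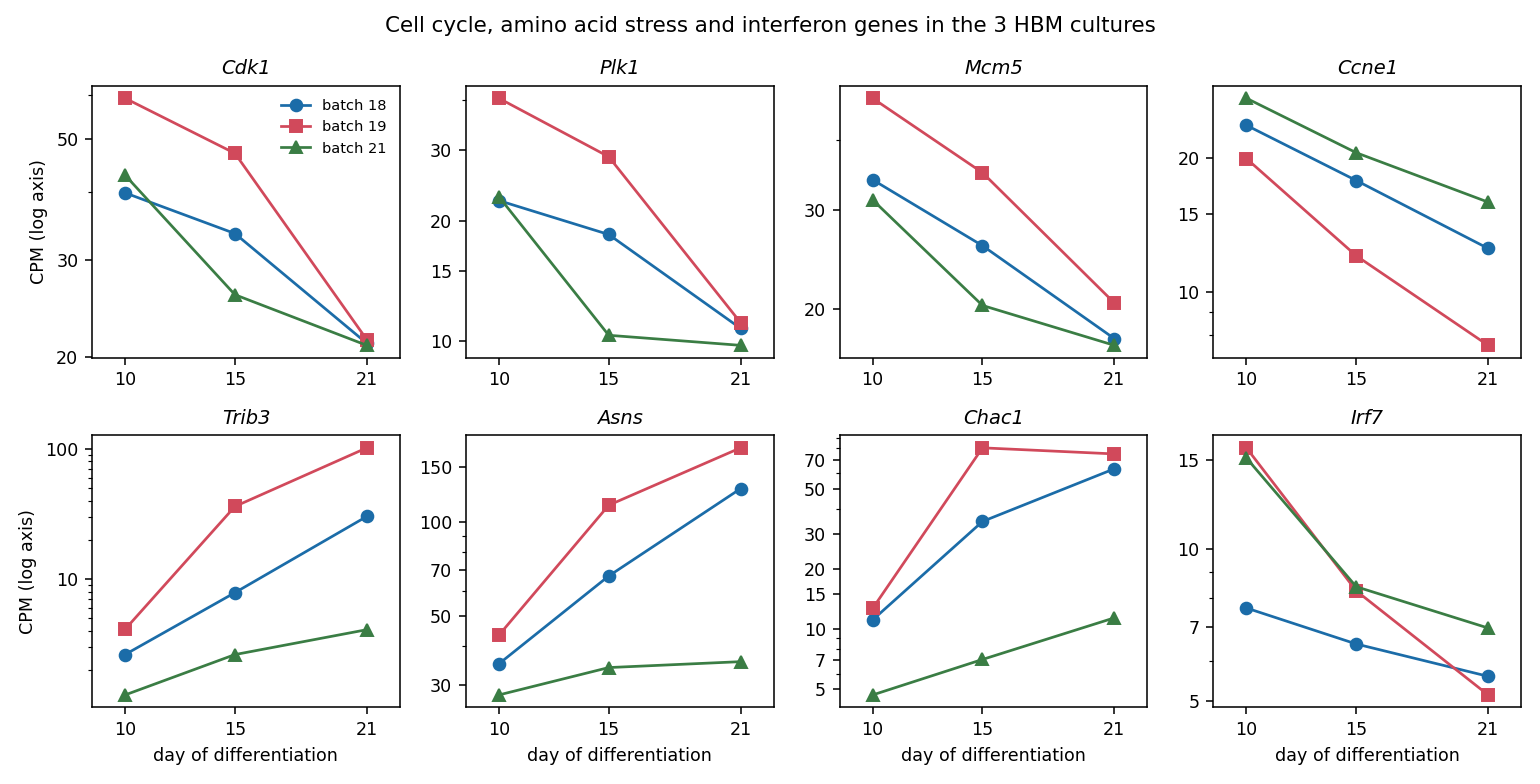
Levels of 4 cell cycle genes (Cdk1, Plk1, Mcm5 and Ccne1), 3 stress response genes (Trib3, Asns and Chac1) and the interferon regulator Irf7 in the 3 HBM cultures at days 10, 15 and 21 (CPM, log axis; each line joins the libraries of 1 batch number, called a culture). The cell cycle genes end lower in all 3 cultures, and Trib3, Asns and Chac1 climb less in culture 21 than in cultures 18 and 19.

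Interferon response genes were lower at day 21. Of 20 tested, 11 fell and 0 rose, with a median log2 change of -0.709. Irf7 (chr7:141262706-141266481), a transcription factor that amplifies the response, had 5.59, 5.13 and 6.97 CPM at day 21 against 7.64, 15.9 and 15.2 CPM at day 10, with no overlap between the days. It was 2.11-fold lower (log2 change -1.08, SE 0.198, adjusted p = 0.00622; edgeR). Isg15, a ubiquitin-like protein, had 11.4, 10.6 and 10.3 CPM at day 21 against 13.1, 28.3 and 30.8 CPM at day 10 (log2 change -1.08, edgeR adjusted p = 0.019). The signalling factor Stat2 had 32.3, 32 and 40.2 CPM at day 21 against 40.1, 50.7 and 49.4 CPM at day 10 (log2 change -0.42, edgeR adjusted p = 0.0091). The days did not overlap for Isg15 and overlapped for Stat2, whose call was lost without the day 10 library of culture 19. The Isg15 call was lost without the day 10 or the day 21 library of culture 19 or 21. The medians were -0.835 and -0.805 in cultures 19 and 21 and -0.236 in culture 18. The count was 1 without the day 10 library of culture 19, 2 without the day 21 library of culture 19, 3 without the day 10 library of culture 21 and 5 without the day 21 library of culture 21, and it was 7, 0 and 2 without batches 18, 19 and 21.

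Of 19 sterol synthesis genes, 4 fell and 0 rose, and all 19 fitted changes lay below 0. Fdft1 (squalene synthase), Mvd and Mvk (mevalonate pathway enzymes) were among those that passed, with log2 changes of -0.63, -0.59 and -0.51 (edgeR adjusted p = 0.0344, 0.0423 and 0.0189). Without 1 library calls were lost for Fdft1 (day 21 of cultures 19 or 21, day 15 of culture 18, day 10 of cultures 19 or 21), Mvd (day 21 of cultures 19 or 21, day 15 of cultures 18, 19 or 21, day 10 of cultures 19 or 21) and Mvk (day 21 of cultures 19 or 21, day 10 of cultures 19 or 21). The median was -1.16 in culture 19, -0.413 in culture 21 and 0.00587 in culture 18. The count was 0 without the day 10 or the day 21 library of culture 19, 1 without the day 10 library of culture 21, 2 without the day 15 library of culture 18 and 8 without the day 10 library of culture 18.

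The smallest p-value belonged to Nupr1 (chr7:126623249-126630861), a small chromatin protein induced by stress. It had 419, 439 and 153 CPM at day 21 against 109, 145 and 33.5 CPM at day 10, with every culture higher at day 21 and no overlap between the days, and was 3.75-fold higher (log2 change 1.91, SE 0.114, adjusted p = 1.4e-05; edgeR). Dio2, the deiodinase that makes active thyroid hormone, had 61.4, 51.6 and 19.1 CPM at day 21 against 16.2, 6.75 and 3.51 CPM at day 10, with no overlap. It was 5.23-fold higher (adjusted p = 4.77e-05; edgeR). Vit, a matrix protein named vitrin, had 78.8, 90.8 and 13.6 CPM at day 21 against 22.9, 21.7 and 4.5 CPM at day 10. It was 3.55-fold higher (adjusted p = 4.77e-05; edgeR).

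The unconventional myosin Myo1d, the fibulin Fbln7 and the adhesion receptor Adgrf5 were 1.88-fold, 2.03-fold and 3.31-fold higher (adjusted p = 4.77e-05, 7.55e-05 and 9.78e-05; edgeR). Adgrf5 had 24.6, 29.6 and 24.9 CPM at day 21 against 6.44, 7.03 and 10.7 CPM at day 10, again without overlap. Among genes that fell, AW551984 had 24.2, 11.9 and 17.8 CPM at day 21 against 85.8, 45 and 63.6 CPM at day 10, without overlap. It was 3.65-fold lower (adjusted p = 4.77e-05; edgeR). The heparan sulfate proteoglycan Sdc1 had 135, 96.8 and 133 CPM at day 21 against 215, 153 and 191 CPM at day 10. The membrane protein Itm2a had 374, 261 and 302 CPM at day 21 against 661, 400.4 and 493 CPM at day 10. Both were lower at day 21 without overlap. They were 1.53-fold and 1.64-fold lower (adjusted p = 0.000468 and 0.000664; edgeR). The amino acid transporter Slc38a4 was 1.94-fold lower (adjusted p = 0.000664; edgeR).

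The largest fitted increases were in genes with low day 10 levels. Soat2, which esterifies cholesterol, had 2.73, 8.18 and 0.407 CPM at day 21 against 0.0961, 0.202 and 0.212 CPM at day 10. It was 16.2-fold higher (adjusted p = 0.00349; edgeR). Adm2, a vasoactive peptide, had 12, 15.2 and 1.06 CPM at day 21 against 0.577, 1.7 and 0.0236 CPM at day 10, with 1 read at day 10 in culture 21, and was 15-fold higher (adjusted p = 0.000164; edgeR). The actin-binding Avil had 20.6, 79.3 and 2.22 CPM at day 21 against 1.99, 3.17 and 1.25 CPM at day 10, carried by cultures 18 and 19, and was 10-fold higher (adjusted p = 0.00521; edgeR). Slc7a3, a transporter of cationic amino acids, had 16.4, 12.9 and 0.838 CPM at day 21 against 1.18, 1.61 and 0.377 CPM at day 10. It was 8.1-fold higher (adjusted p = 0.00249; edgeR). Every one of these was higher in each culture, and only the Soat2 levels did not overlap between days. Gpr141, an orphan receptor, and Saa3, an acute phase protein, were 13.2-fold and 8.39-fold higher (adjusted p = 0.00207 and 0.00617; edgeR), and the Saa3 call was lost without the day 10 or the day 21 library of culture 19.

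The largest decreases were smaller. Crabp1, which binds retinoic acid, had 19.7, 21.2 and 9.98 CPM at day 21 against 92.9, 65.4 and 27.6 CPM at day 10. It was 3.43-fold lower (adjusted p = 0.00617; edgeR). Sox11, a transcription factor of progenitor cells, had 0.278, 0.48 and 0.226 CPM at day 21 against 1.25, 1.82 and 0.777 CPM at day 10. It was 3.9-fold lower (adjusted p = 0.00249; edgeR). Ucma, a secreted cartilage protein, had 0.751, 1.52 and 1.09 CPM at day 21 against 4.35, 3.2 and 1.93 CPM at day 10. It was 2.74-fold lower (adjusted p = 0.00727; edgeR). The days did not overlap for Sox11, Crabp1 or Ucma. Nell2, Ncam2, Nptx1, Cxcl9 and Parvg, all at or under 7 CPM, were 2.85-fold to 3.29-fold lower (adjusted p = 0.0102 to 0.0347; edgeR), and calls were lost without 1 library for Nell2 (day 21 of cultures 18 or 19, day 10 of culture 19), Ncam2 (day 21 of culture 18, day 10 of culture 19), Nptx1 (day 21 of culture 18, day 10 of culture 18), Cxcl9 (day 21 of cultures 18, 19 or 21, day 10 of cultures 19 or 21) and Parvg (day 21 of cultures 18, 19 or 21, day 10 of cultures 19 or 21).

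Of 13 macrophage genes, 0 passed by edgeR, 1 (Cx3cr1) had an unadjusted p under 0.05 and 1 passed by DESeq2. Their median log2 change was 0.168, and Adgre1, the F4/80 antigen, had 53.1, 231 and 312 CPM at day 21 against 48.3, 190.2 and 403 CPM at day 10. The cultures differed, with macrophage medians of 0.146, 0.37 and -0.231 in 18, 19 and 21. In cultures 18 and 19, 11 and 12 of the 13 genes were above 0, and in culture 21, 12 were below. Of 9 osteoclast genes tested, 4 rose. Atp6v0d2, a proton pump subunit, had 7.23, 47.1 and 46.7 CPM at day 21 against 2.98, 7.44 and 7.75 CPM at day 10. It was 4.79-fold higher (adjusted p = 0.00199; edgeR). Dcstamp, needed for fusion of osteoclast precursors, had 0.167, 3.02 and 2.47 CPM at day 21 against 0, 0.375 and 0.0471 CPM at day 10. That is 6, 107 and 109 reads at day 21 and 0, 13 and 2 reads at day 10. It was 15-fold higher in the fit (adjusted p = 0.00378; edgeR). Mmp9, given above, and Itgb3 (log2 change 0.26, edgeR adjusted p = 0.0178) also passed, while the osteoclast protease Ctsk had 513, 521 and 379 CPM at day 21 against 526, 429.5 and 312 CPM at day 10 (edgeR adjusted p = 0.305). Atp6v0d2 and Dcstamp were higher in each culture, with overlap across cultures. The Itgb3 call was lost without the day 10 or the day 21 library of culture 18 or 21, and that of Mmp9 as given above. The osteoclast count was 2 without the day 21 library of culture 21.

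Of 11 adipocyte genes, Plin4, a lipid droplet protein, rose and Lep, the hormone leptin, fell, Lep on 6, 2 and 0 reads at day 21 against 41, 2 and 1 at day 10, so that only culture 18 differed by more than 1 read. Adipoq, the adipocyte hormone adiponectin, was seen mainly in culture 18, with 14.1, 1.24 and 0 CPM at day 21 against 30.6, 0.836 and 0.0471 CPM at day 10. Single genes rose in the lists of cartilage (Comp, log2 change 1.30), vessel wall (Cspg4, 0.82) and nerve-related cells (S100b, 0.65), and in the tendon list Thbs4 rose (1.76) and Fbn2 and Mkx fell (-0.76 and -0.52). Since 5.35% of all genes tested rose and 5% fell, single genes are not read as a change of a cell type. Without 1 library calls were lost for Plin4 (day 21 of culture 19, day 10 of cultures 19 or 21), Fbn2 (day 21 of culture 18), Mkx (day 21 of cultures 18 or 19, day 10 of culture 19) and Cspg4 (day 21 of culture 18, day 10 of cultures 18 or 21), and for Lep without any 1 of 8 HBM libraries, all but the day 21 library of culture 19. Of the smooth muscle, skeletal muscle and blood lists 9 of 10, 4 of 9 and 1 of 10 genes could be tested, with 0 passing by edgeR, 0 at an unadjusted p under 0.05 and 0 passing by DESeq2. The part of these cells in the changes of the bone, stress and cell cycle genes was not tested.

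In lists of energy metabolism, quick responses and complement the genes called are read against the 10.4% of all genes called. Of 23 genes of glycolysis and low oxygen, Vegfa, the vessel growth factor, rose, with 90.3, 148 and 41.1 CPM at day 21 against 44.1, 78.6 and 26.2 CPM at day 10 (log2 change 0.87, edgeR adjusted p = 0.00293). Of 21 respiratory chain genes, Cox8b rose and Cycs and Ndufa4 fell (log2 changes 2.14, -0.37 and -0.26). Of 16 immediate early genes, Atf3 rose and Myc, a growth regulator, fell, with 28.8, 37.1 and 32.4 CPM at day 21 against 46, 43.5 and 39 CPM at day 10 for Myc (log2 change -0.39, edgeR adjusted p = 0.0417). The Myc levels did not overlap between days. Without 1 library calls were lost for Cox8b (day 10 of culture 19), Ndufa4 (day 21 of cultures 18, 19 or 21, day 15 of culture 18, day 10 of cultures 19 or 21) and Myc (day 21 of cultures 18 or 21, day 15 of culture 18, day 10 of cultures 18 or 19). Of 17 complement genes, Serping1, the C1 inhibitor, rose, with 254, 259 and 138 CPM at day 21 against 214, 90.3 and 73.5 CPM at day 10 (log2 change 0.89, edgeR adjusted p = 0.00617).

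**Figure D3:**
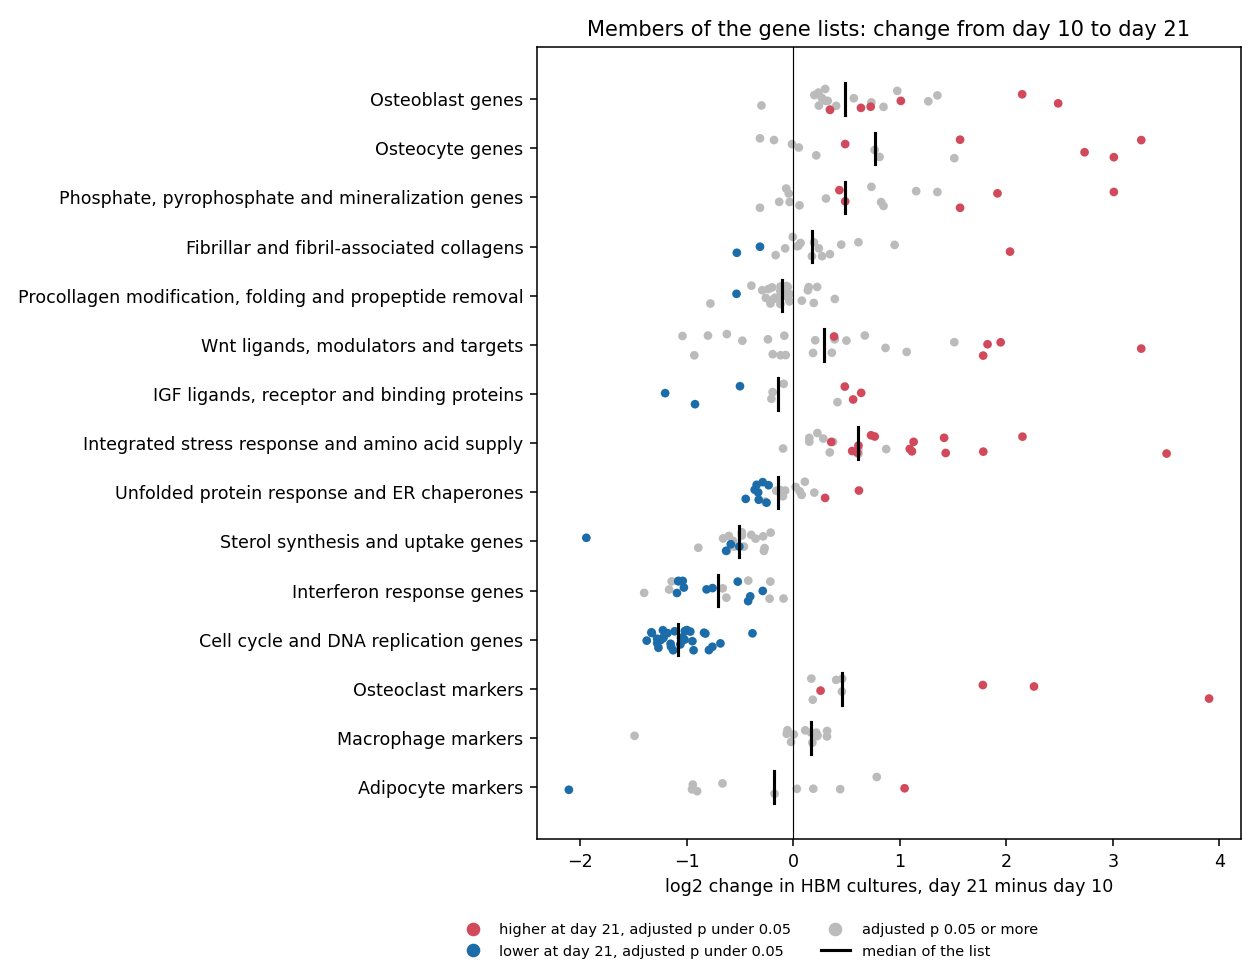
Log2 change between day 21 and day 10 in HBM cultures for each tested gene of 15 lists (points; red rose, blue fell, grey did not pass; black bar, list median). All 30 cell cycle genes lie below 0 with a median of -1.09, and the stress response list has a median of 0.613.

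Day 15 lay between day 10 and day 21 for 864 of the 875 genes that rose (98.7%) and for 807 of the 818 that fell (98.7%), against 54.1% of all genes tested, and these libraries share the day 10 and day 21 values with the comparison that chose the genes. By day 15 the median gene had covered 57.1% of its rise and 50.7% of its fall, against 53.8% of its change over all genes tested. These shares are therefore not read as particular to the genes called. Between day 10 and day 15, 17 of 16344 genes (0.104%) passed, 15 higher (0.0918%) and 2 lower at day 15, and 0 of them without the culture block. Those higher include Nupr1, with 202, 300.2 and 90.9 CPM at day 15 (log2 change 1.12, edgeR adjusted p = 0.00509), Dio2, with 29.9, 27.4 and 8.94 CPM (1.38, 0.0229), and Adm2, with 2.84, 12.2 and 0.319 CPM (2.64, 0.0229). The 2 lower were AW551984 (-0.98, 0.0229) and Sdc1 (-0.39, 0.0427). The count was 7, 8 or 5 without the day 10 library of culture 18, 19 or 21, 0 without the day 15 library of culture 19 or 21, and 71 or 27 without the day 21 library of culture 19 or 21.

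Between day 15 and day 21, 0 genes passed by edgeR (1461 at an unadjusted p under 0.05, and 31 by DESeq2). Nupr1, Fbln7 and Sfrp4 were among the smallest p-values there, each with an edgeR adjusted p of 0.094. Single cultures left this path: Sost had 7.62, 14.7 and 0.0236 CPM at day 10, 26.4, 94.7 and 3.66 CPM at day 15 and 65, 75 and 11.6 CPM at day 21. Dmp1 had 51.7, 123 and 4.48 CPM at day 10, 58.4, 39.7 and 140 CPM at day 15 and 54, 16.8 and 96.7 CPM at day 21.

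The same stretch was set beside WT cultures. In WT, 2549 of 16344 genes (15.6%) passed between day 21 and day 10, 1577 higher (9.65%) and 972 lower (5.95%). The WT count was 937 without the day 10 library of WT culture 19, 1451 without the day 21 library of WT culture 18 and 1011 without that of WT culture 19. Of the 1693 genes called in HBM, 1659 had the same direction in WT, against 11867 of all 16344, 1037 were also called there, and 0 were called in the opposite direction. HBM and WT libraries of the same batch and day share residuals across genes (correlations of 0.0908 to 0.356 over 9 pairs), so the changes of the genotypes are not independent. The median log2 change of the cell cycle list was -1.09 in HBM and -1.04 in WT, where 28 of 30 fell. For the stress response list it was 0.613 in HBM and 0.299 in WT, with 14 and 4 of 24 genes higher, and for the interferon list -0.709 in HBM and -0.246 in WT, with 11 and 2 of 20 lower. For the osteoblast list it was 0.486 in HBM and 0.775 in WT, with 6 and 12 of 22 higher, and Bglap had a log2 change of 2.49 in HBM and 3.83 (adjusted p = 0.0027) in WT.

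The difference between the genotypes was tested as an interaction, the log2 change in HBM minus that in WT. By edgeR 0 genes passed, against 1272 at an unadjusted p under 0.05, while 50 passed by DESeq2 (5 higher and 45 lower in HBM relative to WT) and 69 with terms for each batch and day added (10 higher and 59 lower), and 23 genes were lower by both. The smallest p-values among genes with a lower change in HBM were those of Sh3bp2, an adaptor protein of macrophages and osteoclasts (log2 change 0.0287 in HBM and 0.572 in WT), Akr1b8, an aldo-keto reductase (-0.096 in HBM and 0.658 in WT), and Vsig4, a complement receptor of macrophages (0.486 in HBM and 1.83 in WT), with an edgeR adjusted p of 0.313 each. Of the 13 macrophage genes, 12 had a lower change in HBM, against 49.8% of all genes tested (median difference -0.68), and 11 of them had an unadjusted p under 0.05. All 11 adipocyte genes had a lower change in HBM, with a median difference of -2.37. Their median change was 1.65 in WT. Within HBM cultures 18, 19 and 21 it was -0.985, 0.574 and 0.0593, and 3 of the 11 genes went the same way in all 3. Lower changes were also in the majority in other lists, with 21 of 21 respiratory chain, 19 of 19 sterol, 19 of 20 interferon and 15 of 17 complement genes (medians of -0.144, -0.277, -0.397 and -0.479). The same held for 14 of 17 mineral handling, 15 of 22 osteoblast, 8 of 13 osteocyte and 8 of 9 osteoclast genes (medians of -0.361, -0.132, -0.245 and -0.335). Cell cycle (24 of 30) and glycolysis (18 of 23) genes leaned this way as well (medians of -0.0677 and -0.154). With terms for each batch and day, 4 osteoblast genes passed as lower in HBM, against 1 macrophage and 1 adipocyte gene. Further lists leaned the other way. Changes were higher in HBM for 22 of 24 stress response, 13 of 17 collagen, 7 of 10 cartilage and 8 of 11 tendon genes. Their medians were 0.285, 0.127, 0.514 and 0.162. Macrophage genes summed to 2130 to 9380 CPM at day 21 and 1710 to 12900 CPM at day 10 in HBM. They summed to 5850 to 10600 CPM at day 21 and 2840 to 9980 CPM at day 10 in WT. Adipocyte genes summed to 406 to 560 CPM at day 21 and 273 to 618 CPM at day 10 in HBM. Their sum was 641 to 810 CPM at day 21 and 237 to 434 CPM at day 10 in WT.

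**Figure D4:**
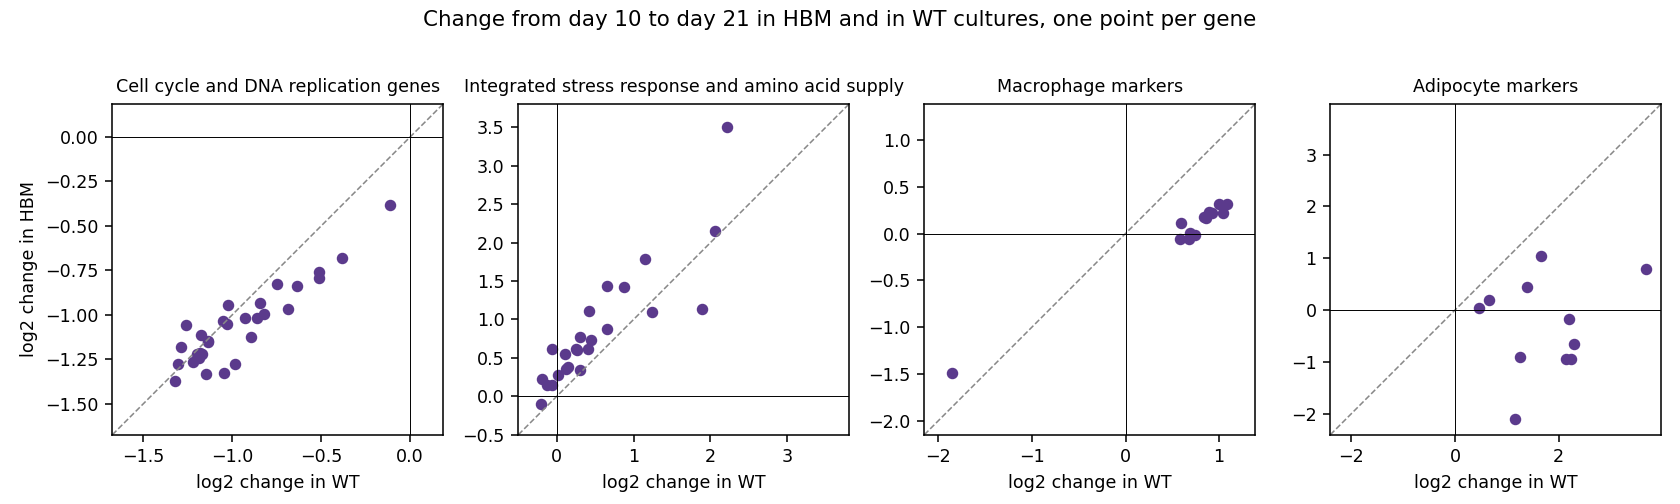
Log2 change between day 21 and day 10 in HBM cultures (vertical axis) against WT cultures (horizontal axis) for the genes of 4 lists; the dashed line marks equal change. Cell cycle genes lie near the line in the lower left, and macrophage and adipocyte genes lie mostly below it.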

How the data were processed

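The files hold raw counts per gene for 24 libraries, which the authors made, per the submitters' processing notes, with cutadapt 3.4, STAR 2.7.8a and featureCounts of Subread 2.0.1 on mm10. The sources used here give no annotation release, strand setting or handling of multimapping reads, so reads of overlapping genes or near-identical copies may be split. Of 54232 rows, 54164 matched GENCODE M21, which gave symbols and coordinates, and 68 did not. Groups came from the labels.

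The 18 libraries of days 10, 15 and 21 of both genotypes were fitted with edgeR 4.0.16 in R 4.3.3 (quasi-likelihood test, TMM scaling, low-count filter over the 6 groups, each culture as a block, 8 residual degrees of freedom, Benjamini-Hochberg adjustment over 16344 genes, threshold 0.05). Day 0 was not used. The biological coefficient of variation was 0.103. A replicate number on different days was read as 1 culture, since in HBM each number's day 21 and day 10 deviations correlated at 0.41 or above. The labels do not state that days share a culture, and a shared batch cannot be told apart from a shared pool. These 18 libraries held 28039095 to 46987734 counts. The members, gene lists and tests were chosen with earlier results of these data known. Genes named are a fixed set of 12 bone genes, the 10 largest changes and 6 smallest p-values in each direction (called, same way in 3 cultures, at least 1 CPM on the higher day), up to 4 genes of each list, and 3 per direction for the other contrasts; list members named beyond that were chosen after their values were seen. Some genes are not reported here. Alternatives were DESeq2 1.42.0, other scaling and filters, other sets of libraries, no block, and each library left out.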

Additional observations from a re-analysis of the deposited data

Results flagged for a closer look

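In Stmn2 and, by CPM, in Lep the HBM cultures moved one way between day 10 and day 21 and the WT cultures the other, and neither gene passed the edgeR test of the difference after adjustment. Lep, the hormone leptin, differed by -3.27 on the log2 scale (HBM minus WT, unadjusted p = 0.00213, edgeR adjusted p = 0.376). It had 6, 2 and 0 reads at day 21 against 41, 2 and 1 reads at day 10 in HBM cultures 18, 19 and 21, so that the reads were equal in culture 19 and 1 apart in culture 21, and a fall in HBM rests on culture 18. Stmn2, a microtubule regulator of neurons, was higher at day 21 in each HBM culture and lower in each WT culture, by 0.01 on the log2 scale in WT culture 18, a difference of 0.82 (unadjusted p = 0.000913, edgeR adjusted p = 0.368), and with terms for each batch and day its edgeR adjusted p was 0.0263.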

How the results depend on the processing

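The count for HBM day 21 against day 10 was 1693 with the culture number as replicate block and 0 without the block, and it was 1671 with RLE scaling, 1930 with DESeq2, 965 in the 9 HBM libraries of days 10 to 21, 7 in the 6 HBM libraries alone and 16 with all 24 libraries. Leaving out 1 library or batch gave 331 to 1490. In the 9 HBM libraries, 3 osteoblast, 3 osteocyte and 3 mineral handling genes rose. Of the unfolded protein response genes 3 fell there, and of the sterol genes 0. Phex, Mepe and Creb3l1 did not pass there (edgeR adjusted p = 0.118, 0.0765 and 0.0752). Day 15 against day 10 gave 17 genes, 0 without the block, 172 without the low-count filter, 0 in 9 HBM libraries, 0 with all 24, 195 with DESeq2 and 0 to 71 with libraries or batches left out. Day 21 against day 15 gave 0 genes, 19 without the filter, 31 with DESeq2 and 0 to 3 with libraries or batches left out. WT day 21 against day 10 gave 2549 genes, 2 without the block, 92 with all 24 libraries and 720 to 2364 with libraries or batches left out. The difference between the genotypes gave 0 genes, 3 without the filter, 50 with DESeq2, 69 with batch and day terms (chosen after seeing the data) and 0 to 2 with libraries or batches left out. The cause of these shifts was not tested, beyond the smaller number of libraries in some.

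Of 100 genes that the naming rule or the lists chose and that passed, 58 kept their call without any 1 HBM library and 42 lost it without at least 1. Leaving out a whole batch ended further calls among the 58. Those lost without batch 18 include Sost, Loxl4, Trib3, Chac1, Vldlr, Bglap2, Vdr, Enpp6, Wif1, Il34, Igf1, Igf2, Soat2, Avil and Crabp1. Their edgeR adjusted p-values without batch 18 were 0.0633 to 0.146. Those lost without batch 19 include Irf7, Mmp12, Igfbp7 and Serping1 (edgeR adjusted p of 0.0742 to 0.117). Dmp1, Spp1, Mpo, Gja1 and Sh3bp2, which did not pass, changed sign. Dmp1 was 0.289 on the log2 scale in the 6 HBM libraries alone, and Mpo 0.127 with all 24 libraries and 0.448 with DESeq2. With libraries or batches left out the log2 change was -0.256 to 0.833 for Spp1, -1.44 to 1.48 for Dmp1, -1.48 to 1.77 for Mpo, -0.0517 to 0.115 for Gja1 and -0.0274 to 0.0942 for Sh3bp2. With 3 cultures per day, genes with few reads, such as Mepe and Lep, are limited by depth as well.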
